A study of Drosophila melanogaster with 15 samples.

Results

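The factors that carry out translation initiation and elongation were followed in RNA from whole Drosophila heads. Members were all genes whose current symbol starts with eIF (initiation) or eEF (elongation), which gave 45 of the 13402 genes that the array annotation pairs with a single symbol. Each of the 45 was measured by 1 probeset, a set of probes summarized to 1 value per array. By complex, 1 member was a subunit of eIF2, 5 were subunits of eIF2B, 16 of eIF3, 12 belonged to the eIF4 group and 3 to eEF1. Another 6 were single initiation factors and 2 were other elongation factors. Of 52 fly genes with such symbols in RefSeq, 7 were not in the platform annotation: eIF2alpha, eIF2gamma, eEF1beta, eEF2, eEF1alpha1, eIF1A and eIF4H1. The first 4 of these could be named through lists that accompany the study and are given apart from the members, and the other 3 were not analysed here.

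RNA was hybridized to 15 Affymetrix Drosophila Gene 1.0 ST arrays, 5 for each of 3 genotypes. The elav/v105975 flies carried elav-Gal4, which drives expression selectively in neurons, together with the UAS transgene v105975, a hairpin RNA against Clic, the chloride intracellular channel gene. The v105975/+ flies carried the hairpin without the driver, and the elav/+ flies carried the driver without the hairpin. Knockdown rested on a single hairpin transgene driven in neurons, whereas RNA was taken from the whole head, and the labels give neither age nor sex. Nothing in the labels tells whether replicates were separate crosses, so the p-values cover array-to-array spread, which may be technical.

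Initiation begins when eIF2, loaded with GTP and the initiator tRNA, joins the small ribosomal subunit with the help of eIF3 and is brought to the capped end of a messenger RNA by the eIF4 factors. eIF2B recharges eIF2 with GTP after each round, and phosphorylation of eIF2 blocks this step when cells are stressed. During elongation eEF1 delivers aminoacyl-tRNAs to the ribosome and eEF2 moves the ribosome along the message.

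All values are log2 intensities, so that a difference between genotypes is a log2 fold change and a level in percent is relative to the mean of the genotype named second. Array medians ranged from 6.16 to 6.24, and each array correlated on average at 0.993 to 0.995 with the other 4 of its genotype. Clic was at 59.0% of elav/+ in elav/v105975 and at 85.9% in v105975/+, and both differences passed the test (limma, adjusted p = 5.48e-07 in elav/v105975 and 0.0269 in v105975/+), so Clic was also lower where the hairpin had no driver. Defining genes of neurons (elav, nSyb, brp) and glia (repo, nrv2) were expressed and passed the test in no comparison. Of 14 measured marker genes of head cell types and germ line, trp of photoreceptors was higher in elav/v105975 (0.30, adjusted p = 0.00737) and in v105975/+ (0.28, adjusted p = 0.0171). Mhc of muscle was higher in elav/v105975 (0.37, adjusted p = 0.00678) and apolpp of the fat body was lower (-0.34, adjusted p = 0.0204), all against elav/+. In v105975/+ neither passed, with Mhc at 0.21 (limma adjusted p = 0.123) and apolpp at -0.29 (limma adjusted p = 0.0585). All 5 v105975/+ arrays of apolpp were below those of elav/+. The other marker of muscle and that of the fat body did not pass. In elav/v105975, up of muscle was at 0.26 (limma adjusted p = 0.136) and Lsp2 of the fat body at 0.04 (limma adjusted p = 0.988). In v105975/+, up was at 0.06 (limma adjusted p = 0.850) and Lsp2 at -0.91 (limma adjusted p = 0.614). Lsp2 was dimmer than apolpp (means over all arrays 6.51 and 11.97), so the fat body sum mostly reflects apolpp. The summed level of the 2 fat body markers on the log2 scale was 11.65 to 12.19 in elav/v105975 and 11.73 to 12.01 in v105975/+, against 12.17 to 12.30 in elav/+. That of the 2 muscle markers was 10.67 to 10.88 in elav/v105975 and 10.45 to 10.81 in v105975/+, against 10.29 to 10.68 in elav/+, and trp alone gave 11.85 to 12.07 in elav/v105975 and 11.86 to 12.004 in v105975/+, against 11.52 to 11.81 in elav/+. The 4 germ line markers summed to 5.90 to 6.53 in elav/v105975 and 5.96 to 6.25 in v105975/+, against 6.04 to 6.24 in elav/+. The part of these shifts in the results on translation factors was not tested.

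The first question was which translation factors differed when the hairpin was driven in neurons. Against elav/+, 7 of the 45 members passed the test in elav/v105975 at an adjusted p of 0.05 (limma, Benjamini-Hochberg over all 16322 probesets), 15.6% of members beside 9.43% of all probesets. The 6 that were lower were eIF2beta, eIF3b, eIF3d1, eIF3m, eIF6 and eEF1gamma, and eIF2Bdelta was higher. That is 13.3% of members lower beside 5.17% of all probesets, and 2.22% higher beside 4.26%. Of the 45, 8 lay in the dimmest 25% of probesets and none of these passed, and among the 37 brighter members 7 passed, beside 1475 of 12241 brighter probesets. The changes were small. Levels of the 6 lower members were 76.7% to 88.4% of elav/+, and eIF2Bdelta stood at 141%. In whole heads, fewer cells of a type that expresses a gene and less RNA per cell cannot be told apart.

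The second question was how much of this was present in flies with the hairpin and no driver. These flies differ from elav/+ in both transgenes, and no genotype lacked both. The hairpin and the absent driver therefore cannot be told apart in this comparison. In v105975/+ against elav/+, 3 members passed (6.67%, beside 6.10% of all probesets): eIF2beta and eIF3m lower (4.44%, beside 3.47%) and eIF2Bdelta higher (2.22%, beside 2.62%). These shares lay near those of all probesets. All 3 had passed in the same direction in elav/v105975, and 38 members passed in neither. Both comparisons share the elav/+ arrays and are therefore given side by side. The plot of fold changes by complex sets them next to each other for every member.

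**Figure D1:**
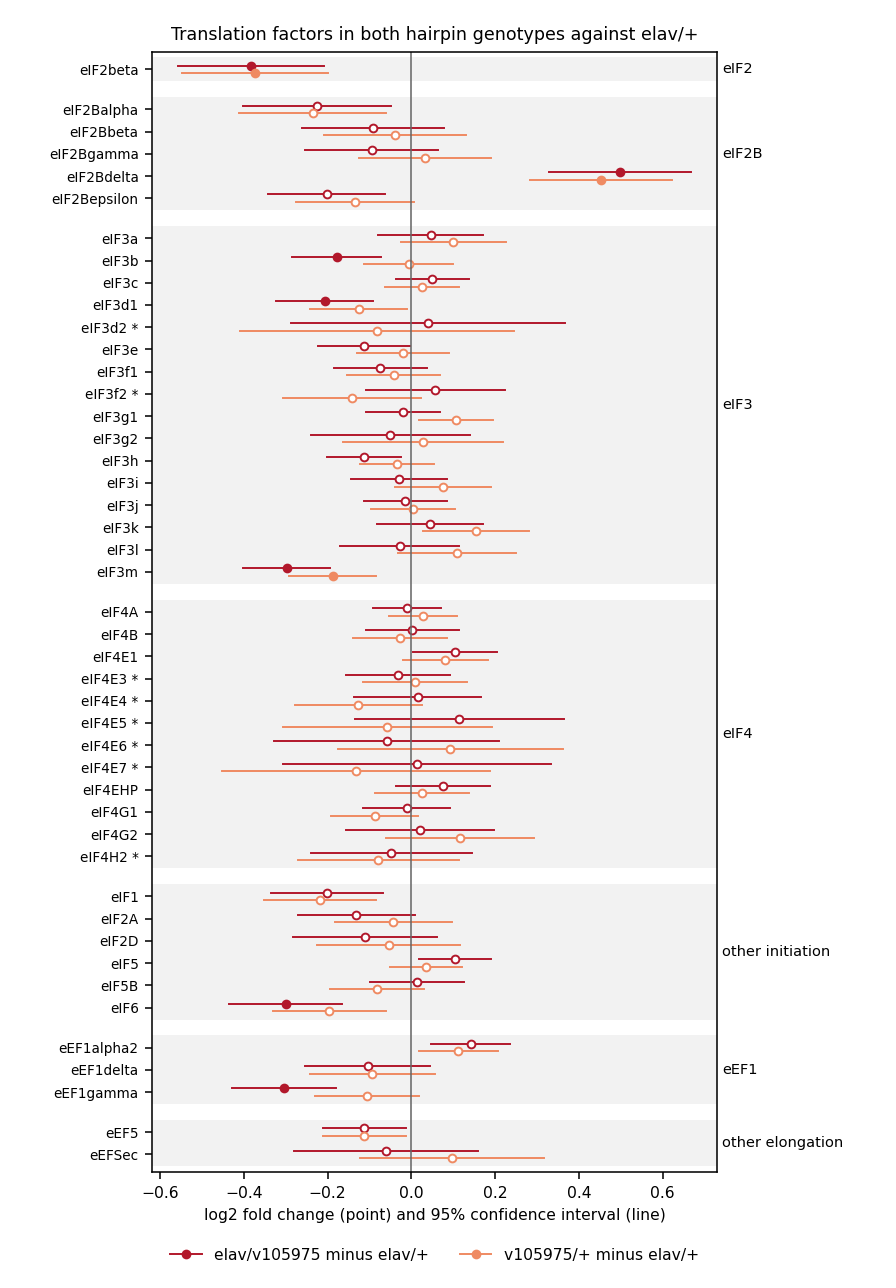
Log2 fold change against elav/+ of the 45 translation factors, grouped by complex, in elav/v105975 (dark red, upper point of each pair) and in v105975/+ (orange, lower point), with 95% confidence intervals from limma. Filled points passed the test at an adjusted p of 0.05, and an asterisk marks the 8 genes in the dimmest 25% of probesets. The filled points are 7 in elav/v105975 and 3 in v105975/+, and eIF2Bdelta is the one to the right of 0.

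eIF2 was represented among the members by its beta subunit, which binds the factors that act on eIF2 and lies on chromosome arm 3L. eIF2beta had log2 intensities of 8.49, 8.48, 8.63, 8.63 and 8.62 in elav/v105975 and of 8.34, 8.67, 8.66, 8.48 and 8.76 in v105975/+, against 8.83, 8.85, 8.90, 9.13 and 9.05 in elav/+. Every array of either hairpin genotype lay below every elav/+ array. The log2 fold change was -0.38 ± 0.08 (SE, n = 5 arrays each, limma adjusted p = 0.00811) in elav/v105975 and -0.37 ± 0.08 (limma adjusted p = 0.0136) in v105975/+, or 76.7% of elav/+ in elav/v105975 (95% confidence interval 68.0% to 86.5%) and 77.2% in v105975/+ (68.4% to 87.1%). Between elav/v105975 and v105975/+ the difference was -0.01, with an interval of -0.18 to 0.16. Both calls held on leaving out any single array.

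The alpha subunit of eIF2, whose phosphorylation shuts initiation down, and the gamma subunit, which binds GTP and the initiator tRNA, were named only through a list that holds probesets called in these same arrays, and so are described with no test. eIF2alpha had 8.50, 8.40, 8.57, 8.55 and 8.51 in elav/v105975 and 8.45, 8.67, 8.73, 8.44 and 8.67 in v105975/+, against 8.68, 8.74, 8.73, 8.79 and 8.81 in elav/+. The elav/v105975 arrays were all below elav/+, while those of v105975/+ overlapped both. eIF2gamma had 8.36, 8.23, 8.49, 8.32 and 8.28 in elav/v105975 and 8.42, 8.48, 8.51, 8.41 and 8.51 in v105975/+, against 8.53, 8.55, 8.74, 8.85 and 8.76 in elav/+. Both hairpin genotypes were below elav/+ in all arrays. The mean difference from elav/+ for eIF2alpha was -0.24 in elav/v105975 and -0.16 in v105975/+. For eIF2gamma it was -0.35 in elav/v105975 and -0.22 in v105975/+.

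eIF2B, the exchange factor of eIF2, consists of a regulatory part made of the alpha, beta and delta subunits and a catalytic part made of gamma and epsilon. Of its 5 subunits only delta passed the test against elav/+, and it did so in both hairpin genotypes. That is 1 of 5 higher, beside 4.26% of all probesets in elav/v105975 and 2.62% in v105975/+. eIF2Bdelta, on chromosome arm 2R, had 6.97, 6.96, 7.12, 6.89 and 6.87 in elav/v105975 and 7.09, 6.99, 6.85, 6.85 and 6.80 in v105975/+, against 6.32, 6.30, 6.52, 6.50 and 6.67 in elav/+. The groups with the hairpin overlapped each other and lay wholly above elav/+. On the log2 scale it was higher by 0.50 ± 0.08 (SE, n = 5 arrays each, limma adjusted p = 0.00105) in elav/v105975 and 0.45 ± 0.08 (limma adjusted p = 0.00307) in v105975/+, which is 141% of elav/+ in elav/v105975 (126% to 159%) and 137% in v105975/+ (122% to 154%). It was the largest fold change of any member in either comparison. Both calls held on leaving out any single array, and elav/v105975 differed from v105975/+ by 0.04 (interval -0.12 to 0.21).

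The other 4 eIF2B subunits did not pass. eIF2Balpha was at -0.23 in elav/v105975 (limma adjusted p = 0.108) and -0.24 in v105975/+ (adjusted p = 0.121), with all 5 arrays of each below all elav/+ arrays. eIF2Bepsilon, the subunit that carries the exchange activity, was at -0.20 in elav/v105975 (limma adjusted p = 0.0690), again with no overlap, and at -0.13 in v105975/+ (adjusted p = 0.295), where the arrays overlapped. eIF2Bbeta and eIF2Bgamma lay within 0.10 of elav/+ in both genotypes, with intervals that reached from -0.26 to 0.19.

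**Figure D2:**
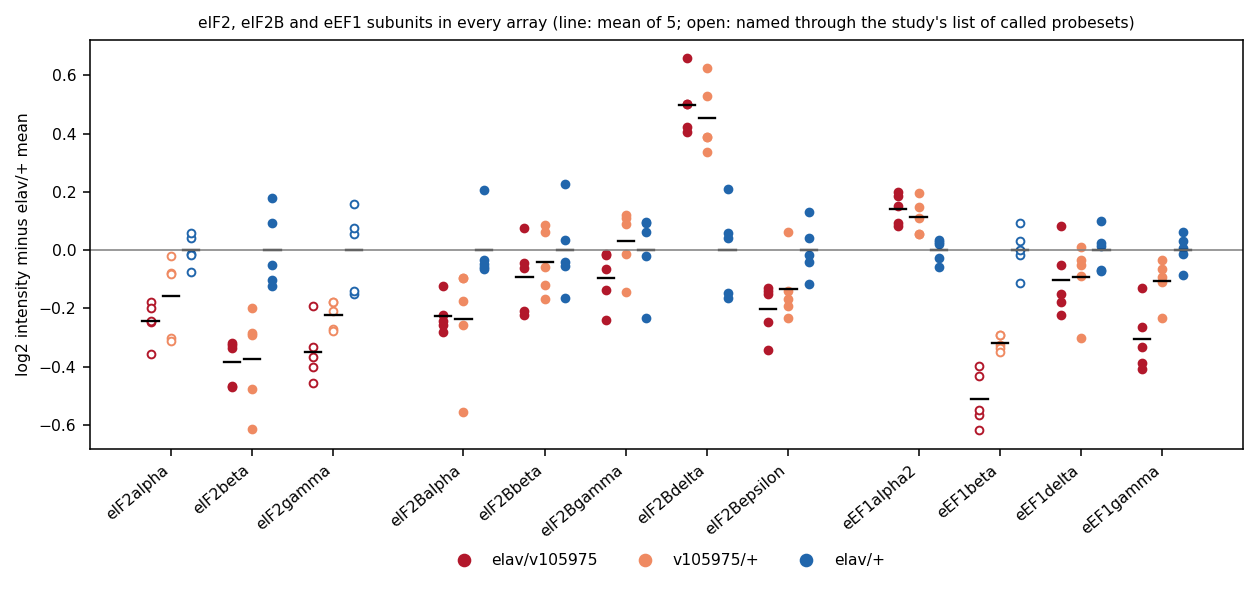
Log2 intensity minus the elav/+ mean of each gene, for subunits of eIF2 (left), eIF2B (middle) and eEF1 (right), with 1 point per array (n = 5 per genotype) and a line at the mean; elav/v105975 is dark red, v105975/+ orange and elav/+ blue. Open points are the 3 genes named through the study's list of called probesets, and eIF2Bdelta is the gene whose hairpin arrays all lie above those of elav/+ by the widest margin.

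eIF3, the large scaffold that binds the small ribosomal subunit and holds the other initiation factors, had 16 members measured. In elav/v105975 against elav/+, eIF3b, eIF3d1 and eIF3m passed the test, all lower (3 of 16, beside 5.17% of all probesets). The other 13 did not pass, with log2 fold changes from -0.11 to 0.06. In v105975/+ only eIF3m passed (1 of 16 lower, beside 3.47% of all probesets), and the others lay between -0.14 and 0.16.

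eIF3m, the subunit with the smallest adjusted p of the complex, had 9.43, 9.39, 9.41, 9.29 and 9.28 in elav/v105975 and 9.49, 9.54, 9.52, 9.43 and 9.38 in v105975/+, against 9.65, 9.74, 9.59, 9.69 and 9.63 in elav/+. The elav/+ arrays were the highest 5 of the 15, and the hairpin genotypes overlapped each other. Its log2 fold change was -0.30 ± 0.05 (SE, n = 5 arrays each, limma adjusted p = 0.00133) in elav/v105975 and -0.19 ± 0.05 (limma adjusted p = 0.0340) in v105975/+, or 81.3% of elav/+ in elav/v105975 (75.7% to 87.4%) and 87.8% in v105975/+ (81.7% to 94.4%). The call in elav/v105975 held without any single array. That in v105975/+ was lost without any one of 7 arrays (v105975/+ replicates 1, 4 and 5 and elav/+ replicates 1, 2, 4 and 5), with a limma adjusted p of up to 0.0803, and when only the 10 arrays compared were fitted.

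eIF3b, a core subunit, had 10.15, 10.17, 10.10, 10.14 and 10.05 in elav/v105975 and 10.39, 10.33, 10.26, 10.29 and 10.20 in v105975/+, against 10.28, 10.41, 10.22, 10.33 and 10.27 in elav/+. The 5 elav/v105975 arrays were the lowest of the 15, and v105975/+ overlapped elav/+. The log2 fold change was -0.18 ± 0.05 (SE, n = 5 arrays each, limma adjusted p = 0.0345) against elav/+ and -0.17 ± 0.05 (limma adjusted p = 0.226) against v105975/+, while v105975/+ differed from elav/+ by -0.01 (interval -0.11 to 0.10). The call against elav/+ was lost without any one of 7 arrays (elav/v105975 replicates 1, 3, 4 and 5 and elav/+ replicates 2, 4 and 5), with a limma adjusted p of up to 0.0812, and in the fit of 10 arrays.

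eIF3d1, whose human counterpart can bind the cap of some messages, had 9.77, 9.77, 9.84, 9.93 and 9.93 in elav/v105975 and 9.87, 9.94, 9.94, 9.90 and 10.001 in v105975/+, against 10.01, 9.95, 10.05, 10.07 and 10.20 in elav/+. The elav/v105975 arrays were all below elav/+, and v105975/+ overlapped both. Log2 fold changes were -0.21 ± 0.05 (SE, n = 5 arrays each, limma adjusted p = 0.0268) in elav/v105975 and -0.13 ± 0.05 (limma adjusted p = 0.219) in v105975/+. The call was lost without any one of 6 arrays (elav/v105975 replicates 1, 2 and 3 and elav/+ replicates 3, 4 and 5), with a limma adjusted p of up to 0.0719, and in the fit of 10 arrays. Of the other subunits, eIF3f1 was at -0.07 in elav/v105975 and -0.04 in v105975/+, eIF3l at -0.03 in elav/v105975 and 0.11 in v105975/+, and eIF3h at -0.11 in elav/v105975 and -0.03 in v105975/+, and none of these passed.

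Averaged over its 14 members outside the dimmest 25%, eIF3 deviated from its mean in elav/+ by -0.096 to -0.046 in the 5 elav/v105975 arrays and by -0.025 to 0.040 in the v105975/+ arrays, against -0.015 to 0.021 in the elav/+ arrays. Most of this came from the 3 members that passed. Over the other 11, chosen after the calls were known, the range was -0.054 to 0.0016 in elav/v105975 and -0.0081 to 0.070 in v105975/+, against -0.027 to 0.029 in elav/+, and all 3 genotypes overlapped. Of the 16 members, dim ones included, 11 were below 0 in elav/v105975 against elav/+ (68.75%, beside 49.8% of all genes with 1 symbol). In v105975/+ against elav/+ 8 were (50%, beside 47.1%). In elav/v105975 against v105975/+ 13 were (81.25%, beside 51.6%). This is a description of genes measured on the same arrays.

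The eIF4 group, which recognizes the cap and unwinds the leader of the message, had no member that passed in any comparison. Of all probesets, 9.43% passed in elav/v105975 and 6.10% in v105975/+ against elav/+, and 0.417% between the hairpin genotypes. At these shares few of 12 genes would pass, so this count does not set the group apart. The 12 log2 fold changes lay between -0.06 and 0.11 in elav/v105975 and between -0.13 and 0.12 in v105975/+. eIF4A, the helicase, was at -0.01 (interval -0.09 to 0.07) in elav/v105975 and 0.03 (-0.05 to 0.11) in v105975/+, so that its level in elav/v105975 lay between 93.8% and 105% of elav/+. eIF4G1, the scaffold that joins cap-binding protein and helicase, was at -0.01 (interval -0.11 to 0.09) in elav/v105975 and -0.09 (-0.19 to 0.02) in v105975/+. eIF4G2, the paralogue of eIF4G1 known from spermatogenesis, was at 0.02 (-0.16 to 0.20) in elav/v105975 and 0.12 (-0.06 to 0.29) in v105975/+. eIF4E1, the main cap-binding protein, was at 0.10 in elav/v105975 (limma adjusted p = 0.198) and 0.08 in v105975/+ (adjusted p = 0.405), and its 5 v105975/+ arrays were all above the 5 of elav/+. Of the 12, eIF4E3, eIF4E4, eIF4E5, eIF4E6, eIF4E7 and eIF4H2 were in the dimmest 25%. Intervals there were wider, with a median half-width of 0.22 in elav/v105975 against elav/+ over the 8 dim members, beside 0.11 over the brighter members that did not pass.

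Among the 6 single initiation factors, eIF6, which keeps the large ribosomal subunit from joining too early, was the only one to pass. In elav/v105975 that is 1 of 6 lower, beside 5.17% of all probesets. In v105975/+ none of them passed, beside 6.10% of all probesets in either direction. eIF6 had 7.72, 7.79, 7.80, 7.83 and 7.77 in elav/v105975 and 7.76, 7.90, 7.84, 7.92 and 8.01 in v105975/+, against 7.94, 7.99, 8.08, 8.27 and 8.13 in elav/+. The elav/v105975 arrays did not overlap elav/+, whereas replicate 5 of v105975/+ reached above the 2 lowest elav/+ arrays. The log2 fold change was -0.30 ± 0.06 (SE, n = 5 arrays each, limma adjusted p = 0.00760) in elav/v105975, 81.2% (74.0% to 89.2%) of elav/+, and -0.20 ± 0.06 (limma adjusted p = 0.0879) in v105975/+. The first call held without any single array.

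eIF1, which guards the choice of start codon, came next to the threshold in both comparisons. It had 10.91, 10.93, 10.81, 10.98 and 10.80 in elav/v105975 and 10.70, 10.99, 11.01, 10.77 and 10.89 in v105975/+, against 11.03, 11.10, 11.11, 11.08 and 11.12 in elav/+. No array with the hairpin reached the lowest of elav/+. Mean differences from elav/+ were -0.20 in elav/v105975 (limma adjusted p = 0.0565) and -0.22 in v105975/+ (adjusted p = 0.0532). eIF5, which triggers GTP hydrolysis by eIF2, was at 0.10 in elav/v105975 (limma adjusted p = 0.124) and 0.04 in v105975/+ and did not pass. Its 5 elav/v105975 arrays were all above those of elav/+, while v105975/+ overlapped elav/+. eIF2A, a protein able to bind initiator tRNA, was at -0.13 in elav/v105975 and -0.04 in v105975/+ and did not pass either.

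**Figure D3:**
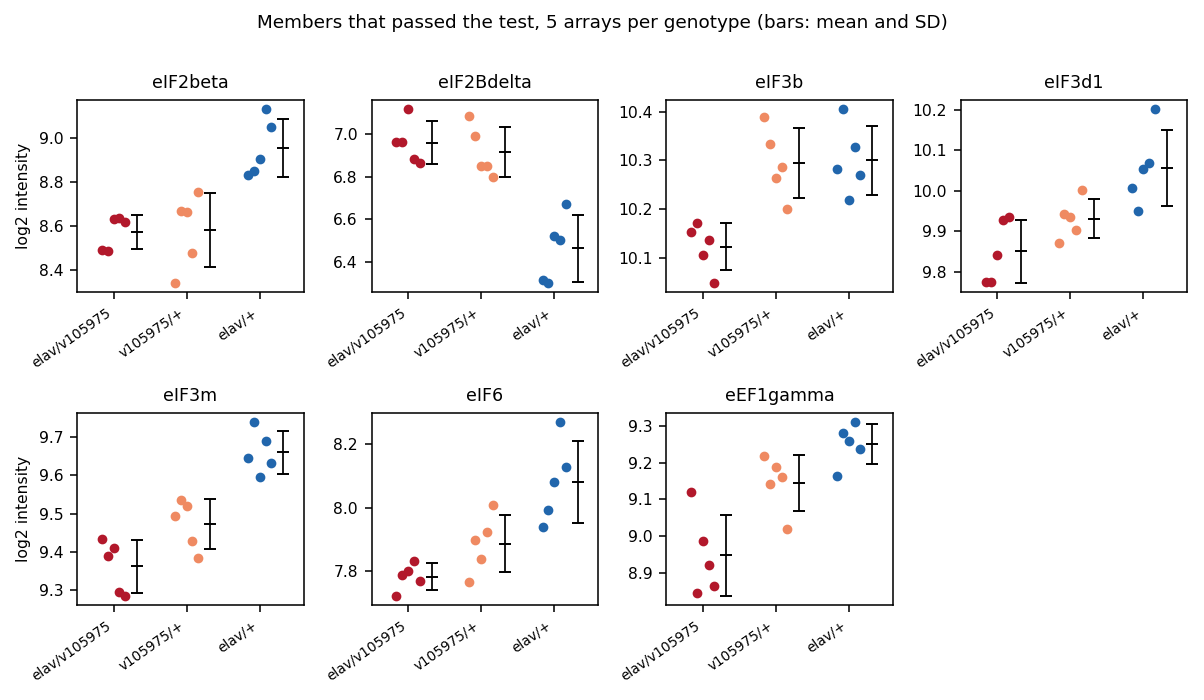
Log2 intensity of the 7 members that passed the test in at least 1 comparison, with 1 point per array (n = 5 per genotype, elav/v105975 left, v105975/+ middle, elav/+ right) and the mean with its SD beside the points; each panel has its own axis, which does not start at 0. In eIF2beta, eIF2Bdelta and eIF3m both hairpin genotypes lie apart from elav/+, and in eIF3b the elav/v105975 arrays lie apart from the other genotypes.

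In the eEF1 complex, where eEF1alpha carries aminoacyl-tRNA and the beta and delta subunits recharge it, the gamma subunit, eEF1gamma, passed in elav/v105975. eEF1gamma had 9.12, 8.84, 8.99, 8.92 and 8.86 in elav/v105975 and 9.22, 9.14, 9.19, 9.16 and 9.02 in v105975/+, against 9.17, 9.28, 9.26, 9.31 and 9.24 in elav/+. Replicate 1 was the highest of elav/v105975 and still below all of elav/+, and v105975/+ overlapped both. The log2 fold change was -0.30 ± 0.06 (SE, n = 5 arrays each, limma adjusted p = 0.00400) in elav/v105975, 81.0% (74.3% to 88.3%) of elav/+, and -0.11 ± 0.06 (limma adjusted p = 0.369) in v105975/+. The difference between elav/v105975 and v105975/+ was -0.20 ± 0.06, with an interval of -0.32 to -0.07, and did not pass (limma adjusted p = 0.242). The call against elav/+ held without any single array.

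eEF1delta had 9.86, 9.91, 9.93, 10.17 and 10.04 in elav/v105975 and 9.78, 10.10, 10.04, 9.996 and 10.05 in v105975/+, against 10.10, 10.02, 10.11, 10.01 and 10.19 in elav/+. The genotypes overlapped and the differences from elav/+ of -0.10 in elav/v105975 (limma adjusted p = 0.409) and -0.09 in v105975/+ (adjusted p = 0.545) did not pass. eEF1alpha2 had 11.40, 11.44, 11.35, 11.45 and 11.33 in elav/v105975 and 11.45, 11.36, 11.40, 11.31 and 11.31 in v105975/+, against 11.22, 11.27, 11.29, 11.28 and 11.19 in elav/+. All arrays with the hairpin were above all elav/+ arrays, by 0.14 in elav/v105975 and 0.11 in v105975/+ on average, yet neither difference passed (limma adjusted p = 0.0593 in elav/v105975 and 0.174 in v105975/+). Whether its probes also bind transcripts of the closely related eEF1alpha1 was not tested.

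eEF1beta, the exchange subunit proper, was named through the list of probesets called in these same arrays and is given with no test. A difference between elav/v105975 and elav/+ therefore follows in part from how the gene came to be named. It had 10.67, 10.69, 10.84, 10.62 and 10.81 in elav/v105975 and 10.95, 10.91, 10.95, 10.90 and 10.89 in v105975/+, against 11.13, 11.22, 11.24, 11.33 and 11.27 in elav/+. The 3 genotypes did not overlap at all, with mean differences from elav/+ of -0.51 in elav/v105975 and -0.32 in v105975/+.

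Among the remaining elongation factors no change passed, where 9.43% of all probesets passed in elav/v105975 and 6.10% in v105975/+ against elav/+. eEF2, the translocase, was named through the study's full list of probesets and is not counted among the members. It had 12.30, 12.26, 12.23, 12.24 and 12.21 in elav/v105975 and 12.32, 12.29, 12.33, 12.31 and 12.24 in v105975/+, against 12.30, 12.29, 12.33, 12.32 and 12.30 in elav/+. The genotypes overlapped, and the log2 fold changes were -0.06 in elav/v105975 (interval -0.14 to 0.02, limma adjusted p = 0.409) and -0.01 in v105975/+ (-0.09 to 0.07, limma adjusted p = 0.943), so that a level below 91.0% of elav/+ lay outside the interval in elav/v105975. eEF5, the hypusine-bearing factor formerly called eIF5A, was at -0.11 in elav/v105975 (limma adjusted p = 0.159) and in v105975/+ (adjusted p = 0.200). Its 5 elav/v105975 arrays were all below those of elav/+, while v105975/+ overlapped elav/+. eEFSec, the elongation factor for selenocysteine, was at -0.06 in elav/v105975 and 0.10 in v105975/+.

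The third comparison set the driven hairpin against the undriven one. These genotypes differ in the driver transgene, so driving the hairpin and carrying the driver cannot be told apart here. No member passed in elav/v105975 against v105975/+, where 0.417% of all probesets did, and 5 members had an unadjusted limma p under 0.05 (11.1%, beside 9.07% of all probesets). The smallest adjusted p was 0.226, of eIF3b. Differences ranged from -0.20 for eEF1gamma to 0.20 for eIF3f2, which is in the dimmest 25%. For 32 of the 45 members the 95% confidence interval lay within 0.25 of 0 on the log2 scale, a width chosen after the values were seen. The members that passed against elav/+ in elav/v105975 alone (eIF3b, eIF3d1, eIF6 and eEF1gamma) are therefore not shown to differ between the hairpin genotypes.

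**Figure D4:**
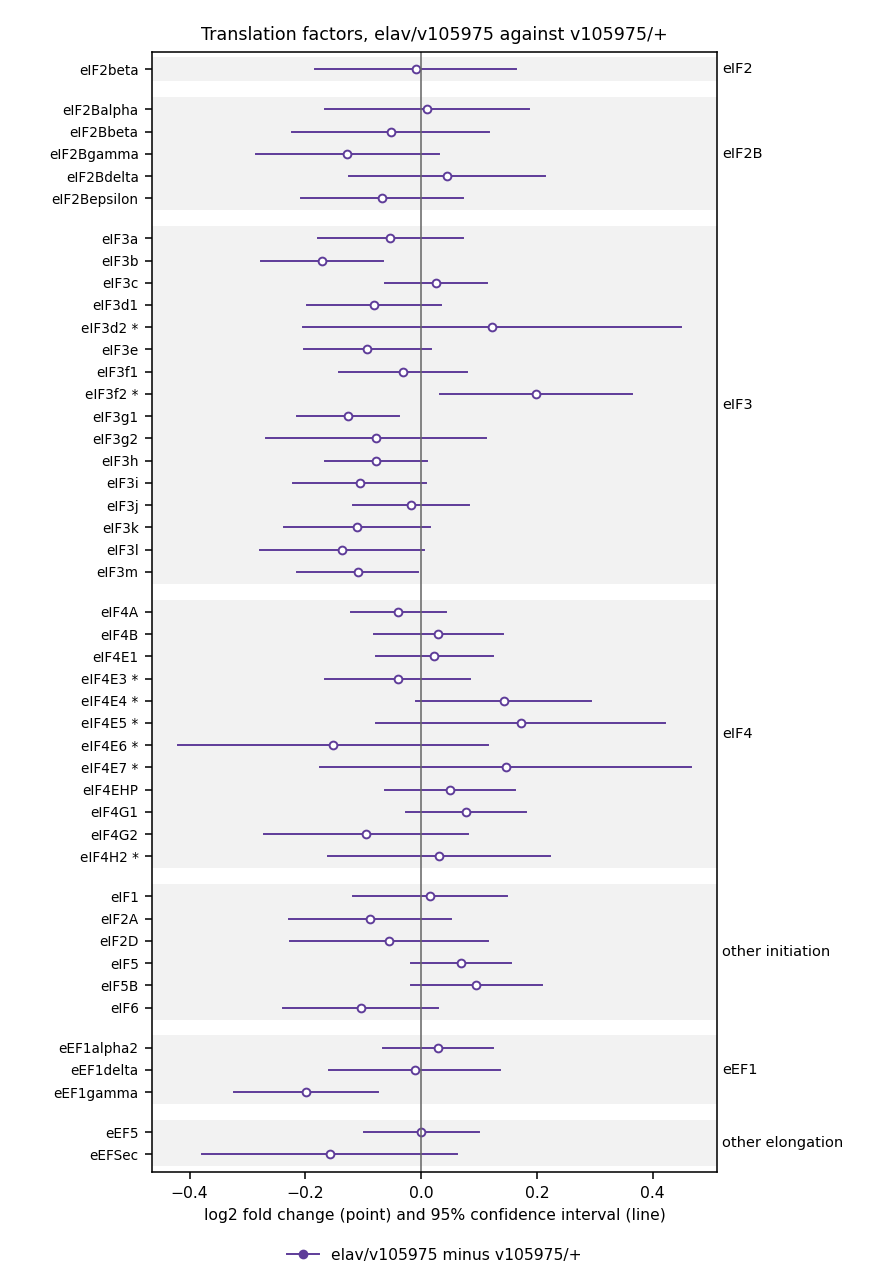
Log2 fold change of elav/v105975 against v105975/+ for the 45 translation factors by complex, with 95% confidence intervals from limma; an asterisk marks genes in the dimmest 25% of probesets. All points are open because none passed the test, and the values run from -0.20 to 0.20.

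Across the 45 members the median log2 fold change was -0.03 in elav/v105975 against elav/+, -0.03 in v105975/+ against elav/+ and -0.04 in elav/v105975 against v105975/+, beside 0.00, 0.01 and 0.00 over all genes with 1 symbol. Single arrays moved these medians, which were -0.052 without elav/v105975 replicate 3 and -0.050 without elav/+ replicate 2 in the first comparison, -0.0044 without v105975/+ replicate 4 in the second, and -0.021 without v105975/+ replicate 3 and -0.025 without elav/v105975 replicate 5 in the third. Below 0 were 29 members (64.4%, beside 49.8% of all genes), 26 (57.8%, beside 47.1%) and 27 (60.0%, beside 51.6%) in these 3 comparisons. The arrays of the groups did not overlap for 13 members in elav/v105975 against elav/+ (10 lower, 22.2% beside 4.92% of all probesets, and 3 higher, 6.67% beside 5.08%). For v105975/+ against elav/+ there were 7 such members (4 lower, 8.89% beside 3.87%, and 3 higher, 6.67% beside 3.32%), and for elav/v105975 against v105975/+ there were 2, eIF3b lower (2.22% beside 1.07%) and eIF5 higher (2.22% beside 1.24%). Brighter members had a smaller spread, with a median SD within genotypes of 0.0761 for the 37 brighter members and 0.172 for the 8 dim ones.

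Of the 7 members called in elav/v105975, eIF2Bdelta, eIF3b, eIF3m and eIF6 lie on chromosome arm 2R, 4 of the 11 members there, beside 9.91% of all genes on 2R. Arm 3R held 2 of its 13 (eIF3d1 and eEF1gamma), beside 9.42% of all genes there, and 3L held 1 of 11 (eIF2beta), beside 7.63%. None of the 4 members on 2L (10.4% of all genes), the 5 on X (7.63%) and the 1 on chromosome 4 (33.3%) passed.

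Outside the members, 35 of 40 listed genes of translation control were measured, namely eIF2 kinases and stress response, eIF4E partners, release factors, enzymes that modify eEF5 and eEF2, mitochondrial factors and scaffolds. In elav/v105975 against elav/+ 2 were lower (5.71%, beside 5.17% of all probesets) and none higher, in v105975/+ 1 was lower (2.86%, beside 3.47%) and none higher, and between the hairpin genotypes none passed. These shares lay near those of all probesets. Thor, the 4E-BP that binds eIF4E and blocks cap recognition, was the one lower in both. It had 11.38, 11.28, 11.35, 11.20 and 11.20 in elav/v105975 and 11.45, 11.46, 11.51, 11.33 and 11.36 in v105975/+, against 11.71, 11.77, 11.67, 11.57 and 11.71 in elav/+. Both hairpin genotypes lay wholly below elav/+ and overlapped each other. Its log2 fold change was -0.40 ± 0.05 (SE, n = 5 arrays each, limma adjusted p = 0.000307) in elav/v105975, 75.6% (69.7% to 82.0%) of elav/+, and -0.27 ± 0.05 (limma adjusted p = 0.00962) in v105975/+, 83.2% (76.7% to 90.2%) of elav/+. eRF3, the GTPase of translation termination, was lower in elav/v105975 (-0.17, limma adjusted p = 0.0368) and at -0.10 in v105975/+ (adjusted p = 0.287). crc, the fly ATF4 whose translation rises when eIF2 is phosphorylated, was at -0.14 in elav/v105975 (limma adjusted p = 0.0843) and -0.16 in v105975/+ (adjusted p = 0.0638) and did not pass. pAbp, the poly(A)-binding protein, was at -0.06 in either and did not pass.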

How the data were processed

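Total RNA from whole heads of 3 genotypes was measured on 15 arrays. The authors deposited 1 log2 intensity per probeset and array, made with RMA (background correction, quantile normalization across arrays and summary of probes). The submitters' processing notes name oligo 1.44.0. Quantile normalization removes shifts common to most transcripts. The number of arrays limits the precision, and no genome build was found in these sources.

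Using limma 3.58.1 (R 4.3.3), 1 model of the 15 arrays without covariates was fitted to all 16322 probesets, followed by contrasts.fit and eBayes. P-values were adjusted by Benjamini-Hochberg over all probesets, with a threshold of 0.05. The same code was tested on simulated data with known changes.

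Symbols came from the platform annotation, updated through Entrez identifiers (13441 probesets with 1 symbol, 13064 of them matched to RefSeq, and 555 with several symbols, not named). Where a gene had several probesets the one with the highest mean was to be used, but each member had 1. eIF2alpha, eIF2gamma, eEF1beta, eEF2, Thor and Mhc were named through the study's lists. A list's fold changes and p-values were not used. Probesets below a mean of 4.29 form the dimmest 25%.

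The members, the lists and the tests were chosen with earlier results of these data known. Any member could be named. Values of every array were given for members that passed in at least 1 comparison and for eIF2 and eEF1 subunits, and up to 3 others per complex were named by highest mean. eIF2Bepsilon, eIF4E1, eIF3f2 and the arrays of eIF1 were added after their values were seen. Of other genes, those that passed, Thor, crc, pAbp and Clic were named. Alternatives covered the arrays fitted, the replicate number as a block, the prior, array weights, a filter on dim probesets, normalization, the adjustment, the threshold and leaving out each array.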

Additional observations from a re-analysis of the deposited data

Results flagged for a closer look

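Within the 5 arrays of a genotype, 1 array stood far from the other 4 by Dixon's test in 9 of 135 groups (45 members in 3 genotypes), where chance alone marks about 1 group in 20. eIF2Balpha was high in elav/+ replicate 5 (7.32, the others 7.05 to 7.08). eIF3a was low in elav/v105975 replicate 2 (6.995, the others 7.17 to 7.23). eIF3e was high in elav/v105975 replicate 1 (10.2, the others 10.12 to 10.14), and eIF4B in elav/v105975 replicate 5 (8.28, the others 8.12 to 8.13). eEF5 was low in elav/v105975 replicate 2 (11.004, the others 11.10 to 11.12). eIF3g2 was low in elav/v105975 replicate 1 (4.51), where the other 4 arrays held one identical value of 4.81. eIF4E3 was low in elav/v105975 replicate 4 (3.52, the others 3.75 to 3.80) and high in v105975/+ replicate 4 (3.78), where the other 4 arrays held an identical 3.75. eIF4E7 was high in elav/+ replicate 1 (3.10, the others 2.72 to 2.79). None of these genes passed the test in any of the 3 comparisons.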

How the results depend on the processing

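With an intensity trend in the prior, 11 members passed in elav/v105975 against elav/+ in place of 7, adding eIF3h and eIF1 (lower) and eIF5 and eEF1alpha2 (higher), or 24.4% of members beside 11.7% of all probesets. With a further demand for a 1.5-fold change none passed in either comparison with elav/+, where only 222 and 193 of all 16322 probesets did. At those shares few or none of 45 genes would pass. At an adjusted p of 0.01, 5 members passed in elav/v105975 (11.1%, beside 3.89% of all probesets), without eIF3b and eIF3d1, and 1 in v105975/+ (eIF2Bdelta, 2.22% beside 2.36%). The median of members in elav/v105975 against elav/+ was -0.061 without the dimmest 25% of probesets, which leaves fewer genes, and -0.0524 to -0.0240 on leaving out 1 array. That range was -0.0485 to -0.0044 in v105975/+ against elav/+ and -0.0520 to -0.0210 in elav/v105975 against v105975/+. Leaving out 1 array, 5 to 9 members passed in elav/v105975 and 2 to 4 in v105975/+ against elav/+, and none between the hairpin genotypes. The shares of all probesets in these fits are not given here, so these counts have no background beside them. Over the 10 called results of single members and 26 settings each, 221 of 260 values kept direction and call, 39 lost the call (20 of them without 1 array) and none turned. The calls of eIF3b in elav/v105975 and eIF3m in v105975/+ were also lost with arrays centred on their medians. In elav/v105975, eIF1 passed in each of 6 settings taken singly, namely the fit of 10 arrays, the trend, array weights, leaving out the dimmest 25%, and leaving out v105975/+ replicate 1 or replicate 3. In v105975/+ it passed with the trend, without the dimmest 25%, and without v105975/+ replicate 2 or replicate 3. Arrays of the same replicate number did not deviate together (r from -0.076 to 0.18 over 15 pairs). With the replicate number as a block 7, 3 and 0 members passed in the 3 comparisons, as without it, beside 1492, 966 and 64 of all probesets. No member had more than 1 probeset, so the choice of probeset could not be varied. The cause of these changes was not tested.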

Other observations

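Some probesets held exactly the same value in several arrays. This was so for 16 of the 45 translation factors (35.6%), beside 41.7% of all probesets. Among the 8 members in the dimmest 25% of probesets it was 5, and among the 37 brighter members 11. eIF4E3 had the same value in 8 of 15 arrays and eIF3g2 in 6.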
